A study of Danio rerio with 18 samples.

Results

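Cytochrome P450 genes encode haem enzymes that insert 1 oxygen atom into a substrate, and the deposited gene table of this zebrafish series holds 79 of them among 28870 rows. They were taken as all rows whose name starts with cyp, a number and a letter, except cyp19a1a. The rule leaves out cyp51 and 3 rows written in capitals, of which CYP27B1 is used below as a partner. The 79 rows fall into 16 families (the number in the name) and 38 subfamilies (the number with its first letters).

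P450 enzymes draw electrons from a reductase or from ferredoxin. Some make or break down signalling molecules such as vitamin D, retinoic acid, steroid hormones and bile acids, and their substrates are well known. Others clear drugs, toxins and fatty acids in liver and gut, and these families have been copied many times over in fish, often as rows of neighbouring genes.

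RNA of whole zebrafish (Danio rerio) was sequenced in 18 libraries, 3 in each of 6 groups. Groups labelled het carried the stl297 allele of scospondin, which the series calls a hypomorph, in the heterozygous state at 5, 15 or 30 days post fertilisation (dpf). Groups labelled maternal zygotic mutant (MZ) were mutant for the same allele at those ages, as were their mothers. Scospondin builds the Reissner fibre, a protein thread that runs through the fluid-filled canal of brain and spinal cord. Per the labels, total RNA came from Trizol extraction with a QIAGEN column step, and a SMARTer kit was used for library preparation. Neither the number of fish in a library nor the clutch is stated, so n is a number of libraries and the p-values measure only the spread between them, which may be technical. In the count columns het libraries are called ox and MZ libraries homoz. An MZ fish needs a mutant mother, so cross and genotype cannot be told apart.

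Library totals ran from 10178388 to 17141819 counts, and the 2 smallest 5 dpf libraries were het replicate 2 and MZ replicate 2. Counts of scospondin itself lay between 1 and 16 in the 18 libraries. Between 70 and 75 of the 79 P450 rows had a count in a library, and together they took from 0.152% to 0.314% of its counts. Levels are given as CPM, counts scaled to library size with TMM factors over the 18 libraries, and levels of different genes are compared as RPKM, the CPM per kilobase of the deposited length, which may sum several loci of 1 name. In whole fish, fewer cells of a type and less RNA per cell cannot be told apart.

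Averaged over the 18 libraries, the highest P450 level was that of cyp3a65 at 158.9 RPKM, a relative of the human drug-metabolising CYP3A4. It was followed by cyp7a1a at 126.9 RPKM, which starts bile acid synthesis by hydroxylating cholesterol, and by cyp2n13 at 101.3 RPKM and cyp2ad2 at 89.1 RPKM, both related to the mammalian fatty acid epoxygenases of the CYP2J subfamily. In het fish at 5 dpf these 4 genes stood in another order and within each other's spread, at 70.7 ± 20.1 RPKM for cyp7a1a, 67.5 ± 18.3 for cyp2n13, 62.5 ± 9.25 for cyp2ad2 and 60.1 ± 24.3 for cyp3a65 (SD, n = 3). Family 2, with 40 of the 79 rows, held 44.1% of the summed P450 RPKM, family 3 held 23.2% and family 7 held 11.1%. Families of hormone synthesis were low, with leading genes at 0.964 RPKM (cyp17a1), 0.829 RPKM (cyp11c1), 0.197 RPKM (cyp21a2) and 0.173 RPKM (cyp19a1b, the brain aromatase). The other family leaders were cyp8b1 at 46.3, cyp1a at 44.1, cyp4v8 at 36.6, cyp20a1 at 18.9, cyp27a7 at 12.7, cyp24a1 at 12.4, cyp46a1.3 at 10.1, cyp26b1 at 5.86 and cyp39a1 at 0.321 RPKM. No count was found for 3 rows, cyp1c1, cyp2k31 and cyp8b3.

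Of the 76 rows with counts, 22 had their highest group mean in MZ fish at 15 dpf, 15 in het fish at 5 dpf and 15 in het fish at 30 dpf. MZ fish at 5 dpf held the highest mean of 10 rows, MZ fish at 30 dpf of 10 and het fish at 15 dpf of 4. These are orders of means, with no test.

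**Figure D1:**
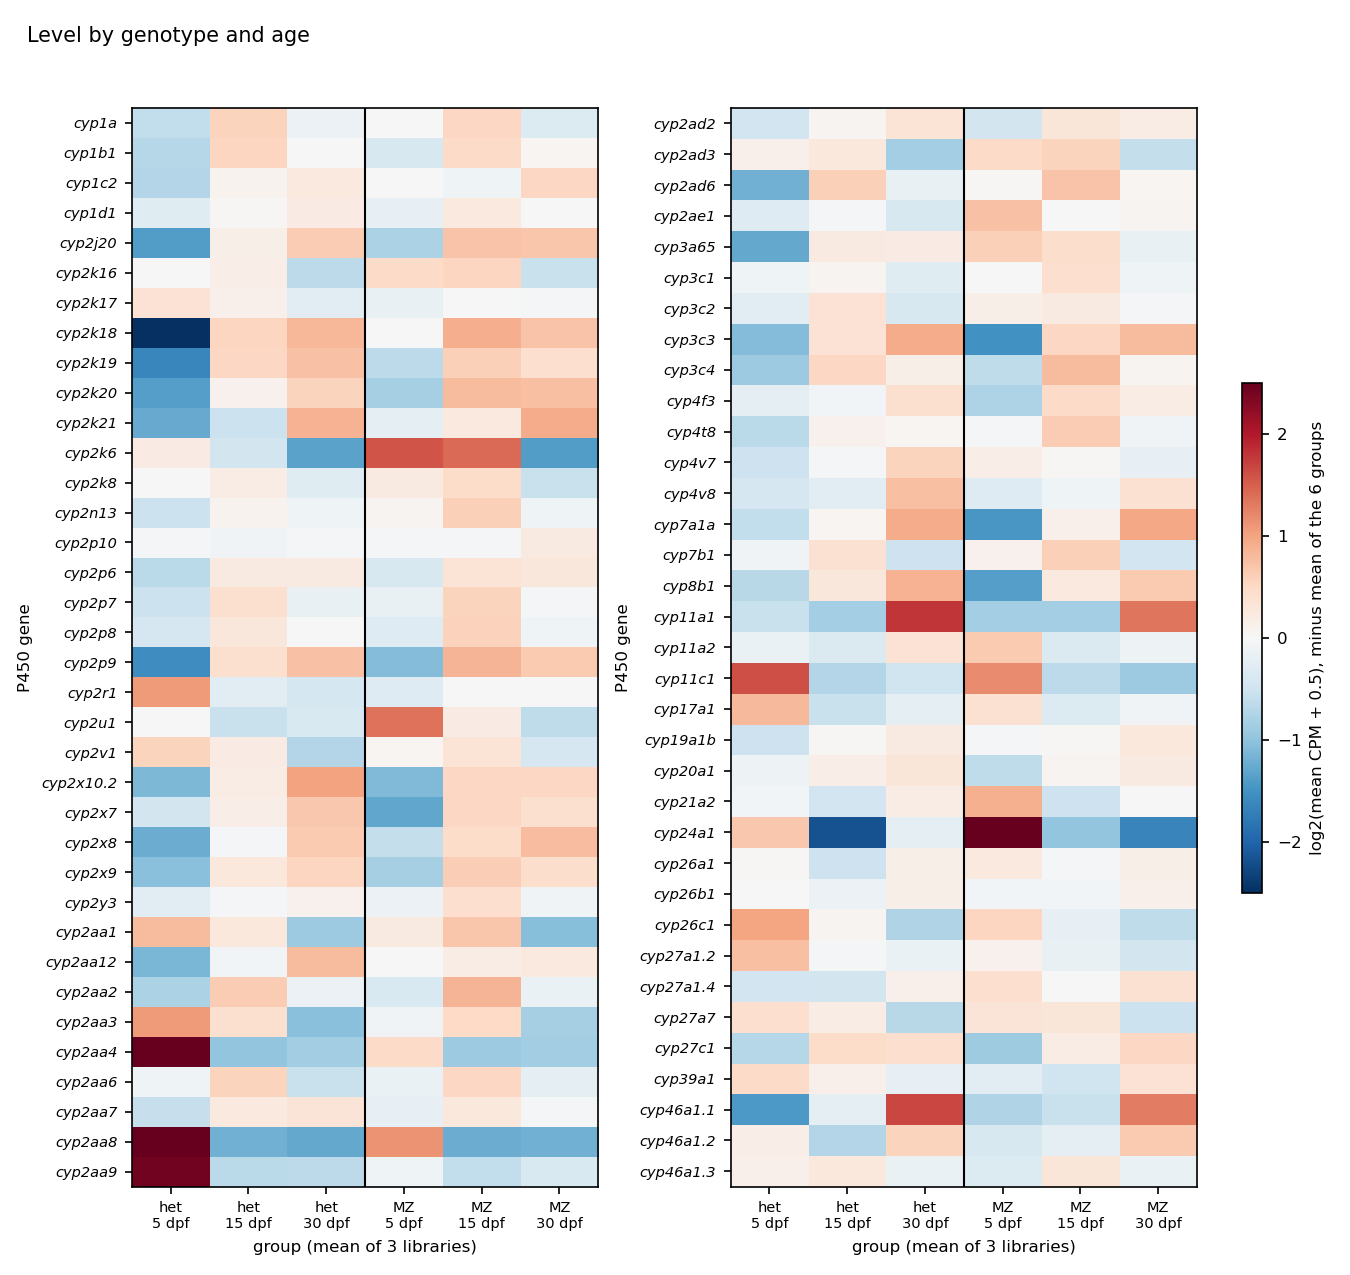
Levels of 71 P450 genes in the 6 groups, as log2 of the mean CPM of 3 libraries plus 0.5, minus the mean of the 6 groups for that gene; the colour scale is capped at 2.5 either way and the black line parts het from MZ. Darkest are the low cyp2k18 and the high cyp2aa4, cyp2aa8 and cyp2aa9 in het fish at 5 dpf, and the high cyp24a1 in MZ fish at 5 dpf.

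The first comparison asked which P450 transcripts differed between MZ and het fish at 5 dpf. Of 68 P450 genes that passed the filter on low counts, 25 rose and 15 fell in MZ against het fish, so 40 of 68 (58.8%) were called, which means an edgeR adjusted p under 0.05. The background was 40.7% of 19779 genes called in either direction, 21.1% higher and 19.6% lower. The median log2 fold change of the 68 P450 genes was 0.31 against 0 over all genes, and it was 0.18 without het replicate 3. The MZ libraries lay wholly above the het libraries for 22 P450 genes and wholly below for 16, where the same held for 21.8% and 30.4% of all genes. The 11 rows that did not pass were cyp1c1, cyp2k31 and cyp8b3, with no counts, and cyp11a1, cyp17a2, cyp19a1b, cyp2aa11, cyp2k22, cyp2x6, cyp4f3 and cyp8b2. The 28 genes tested and not called had log2 fold changes from -1.12 to 0.85.

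The vitamin D enzymes held the widest difference. Cyp24a1, which breaks down active vitamin D and whose gene is a classic target of the vitamin D receptor, was read at 13.7, 9.02 and 11.3 CPM in the het and 146.3, 143.4 and 167.6 CPM in the MZ libraries. Every MZ library was far above every het library, and the log2 fold change was 3.81 (SE 0.14, adjusted p = 2.05e-10 by edgeR). Cyp2r1, the 25-hydroxylase that performs the first activating step, went the other way, from 14.1, 16 and 13.8 CPM in het to 4.32, 5.33 and 6.09 CPM in MZ libraries. Its groups did not overlap, and it fell by 1.41 on the log2 scale (SE 0.16, adjusted p = 1.54e-05 by edgeR). The row CYP27B1, named like the 1-alpha-hydroxylase of the second activating step, had 19, 17 and 37 counts in het and 0, 4 and 8 in MZ libraries. It too was lower in all 3 MZ libraries, and its log2 fold change came to -2.63 (SE 0.59, adjusted p = 0.00267 by edgeR). It kept its call without each library in turn, up to an adjusted p of 0.013. The row passed the filter through its het counts, so neither the call nor its stability is independent of the filter. Of the 3 genes listed for the receptor, vdrb rose slightly (log2 fold change 0.37, adjusted p = 0.0241 by edgeR), while vdra (0.27, adjusted p = 0.248) and its partner rxraa (-0.09, adjusted p = 0.616) were not called.

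**Figure D2:**
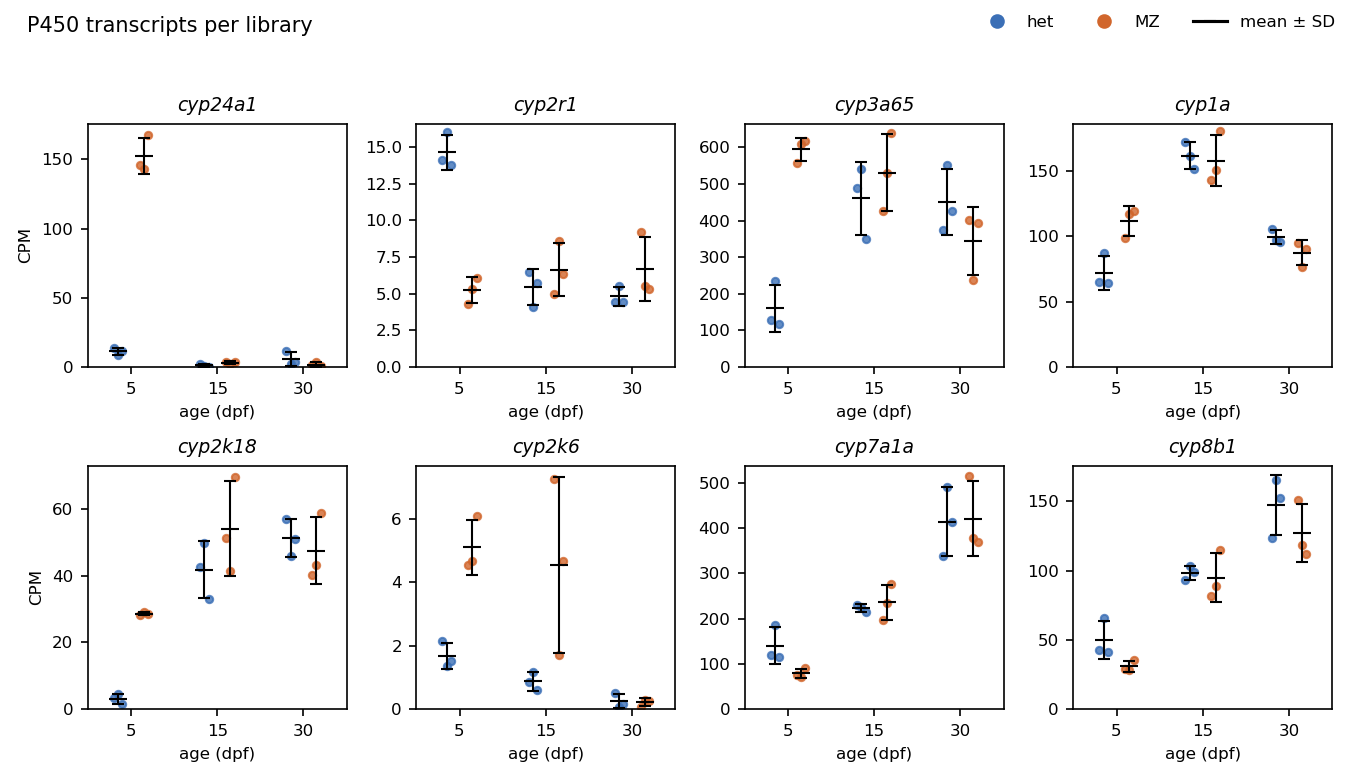
CPM of 8 P450 genes at 5, 15 and 30 dpf (x axis); points are the 3 libraries of a group in blue for het and orange for MZ, bars the mean ± SD. At 5 dpf the MZ points stand above the het points for cyp24a1, cyp3a65, cyp1a, cyp2k18 and cyp2k6, and below them for cyp2r1, cyp7a1a and cyp8b1.

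Among the drug-metabolising genes, cyp3a65 was read at 128.1, 234.5 and 117.2 CPM in het and 557.4, 608.6 and 616.4 CPM in MZ libraries at 5 dpf. The groups were far apart although het replicate 2 was well above the other 2 het libraries, and the log2 fold change was 1.97 (SE 0.20, adjusted p = 3.89e-06 by edgeR). Its 4 relatives of the cyp3c subfamily were not called, with log2 fold changes from -0.36 to 0.72. Cyp1a, which oxidises aromatic pollutants and is switched on by the aryl hydrocarbon receptor (AhR), stood at 65.3, 87 and 64.2 CPM in het and 98.5, 117.3 and 119.3 CPM in MZ libraries. These did not overlap and differed by 0.71 on the log2 scale (SE 0.13, adjusted p = 0.000491 by edgeR). Cyp1c2 rose as well (log2 fold change 0.93, adjusted p = 0.00632 by edgeR), and cyp1b1 (0.44, adjusted p = 0.12) and cyp1d1 (0.18, adjusted p = 0.23) were not called. Of 9 AhR pathway genes listed, 8 had a row and were tested. Of these 5 rose and none fell, where 21.1% of all genes rose and 19.6% fell. The 5 were the receptors ahr1a (1.22) and ahr1b (0.78), the repressor ahrrb (0.99) and the dimer partners arnt (0.67) and arnt2 (0.59). The receptor ahr2, which mediates dioxin toxicity in zebrafish, was at 31.9 ± 1.53 CPM in het and 35.1 ± 7.33 CPM in MZ fish (SD, n = 3) and was not called (0.21, adjusted p = 0.223 by edgeR), nor were the targets tiparp (0.15) and nqo1 (-0.14).

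Summed levels of gut and pancreas markers were also higher in MZ fish at 5 dpf. Over all genes 21.1% were called higher and 19.6% lower. Of 9 enterocyte markers, 4 rose and none fell, and their summed level lay between 2916.7 and 4877.4 CPM in het and between 5426.7 and 5841.9 CPM in MZ libraries. Of 11 markers of the exocrine pancreas, 9 rose, with sums between 12169.9 and 17902.2 CPM in het and between 19201.4 and 22988.8 CPM in MZ libraries. Hepatocyte markers had 3 of 15 higher, near the share over all genes, and none lower. Their sums were 6396.5 to 7648 CPM in het and 5475.1 to 6491.3 CPM in MZ libraries. No defining marker with a row was at 0 in the 3 lists. The trypsin gene prss1, a defining marker of the pancreas, had no row of that name and could not be checked. The part of cell number in the P450 differences was not tested.

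Subfamilies differed in direction. In cyp2k, a fish subfamily of which few substrates are known, 5 of 8 tested genes were called higher at 5 dpf and none lower. Over all genes 21.1% were called higher and 19.6% lower. Cyp2k18 led with 3.19, 4.61 and 1.53 CPM in het against 28.2, 29.2 and 28.4 CPM in MZ libraries (log2 fold change 3.34, SE 0.23, adjusted p = 1.36e-07 by edgeR). The MZ libraries lay close together there, and the het libraries spread over a low range. Cyp2k6, reported to activate aflatoxin in zebrafish, rose by 1.65 on the log2 scale (SE 0.25, adjusted p = 0.000138 by edgeR), cyp2k21 by 1.56, cyp2k19 by 1.09 and cyp2k16 by 0.54. For cyp2k19 and cyp2k16 MZ replicate 1 lay among the het libraries. Cyp2k17 went the other way and was not called (-0.81), although all its MZ libraries lay below its het libraries. The cyp2k genes form a run of 8 neighbours, in the order cyp2k18, cyp2k20, cyp2k19, cyp2k21, cyp2k17, cyp2k16, cyp2k8 and cyp2k6 in the RefSeq annotation, and the 3 that were not called are scattered through it.

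The cyp2aa genes, another subfamily expanded in zebrafish, split within their own run. Of 9 tested, 5 fell and 1 rose at 5 dpf, where 19.6% of all genes fell and 21.1% rose. Of the falling genes, cyp2aa9, cyp2aa4 and cyp2aa3 passed the filter through their het levels. The number called is thus not independent of the filter. Cyp2aa8 was read at 16.4, 17.9 and 15.7 CPM in het and 2.16, 2.62 and 1.99 CPM in MZ libraries, a fall of 2.82 on the log2 scale (SE 0.17, adjusted p = 6.57e-08 by edgeR). Cyp2aa4 went from 8.39, 9.31 and 8.39 CPM to 1.32, 0.0819 and 1.46 CPM, where MZ replicate 2 held 1 count, and fell by 3.01 (SE 0.36, adjusted p = 1.98e-05 by edgeR). Cyp2aa9 went from 4.16, 5.68 and 3.88 CPM to 0.474, 0.0819 and 0.596 CPM and fell by 3.37 (SE 0.38, adjusted p = 1.23e-05 by edgeR). In all 3 the genotypes were widely separated. Cyp2aa3 fell by 1.47 (SE 0.35, adjusted p = 0.00399 by edgeR) and cyp2aa1 by 0.50 (SE 0.13, adjusted p = 0.00625). Against these, cyp2aa12 rose, from 3.58, 4.61 and 3.82 CPM to 9.64, 8.93 and 9.73 CPM (log2 fold change 1.33, SE 0.17, adjusted p = 4.21e-05 by edgeR), and its neighbours cyp2aa6 (0.02) and cyp2aa7 (0.56) were not called.

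In the RefSeq order the run reads cyp2aa12, cyp2aa6, cyp2aa7, cyp2aa11, cyp2aa4, cyp2aa8, cyp2aa9, cyp2aa1, cyp2aa2, cyp2aa3 and then cyp2ae1. The 3 widest falls sit side by side in the middle. At the ends, cyp2aa12 and cyp2ae1 (log2 fold change 1.29, SE 0.22, adjusted p = 0.000371 by edgeR) rose. Cyp2aa11, next to cyp2aa4, did not pass the filter and had 18, 3 and 4 counts in het against 2, 1 and 7 in MZ libraries. Tandem copies can share reads, and the sources used here do not state how such reads or strands were counted, so single values within the runs are uncertain.

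**Figure D3:**
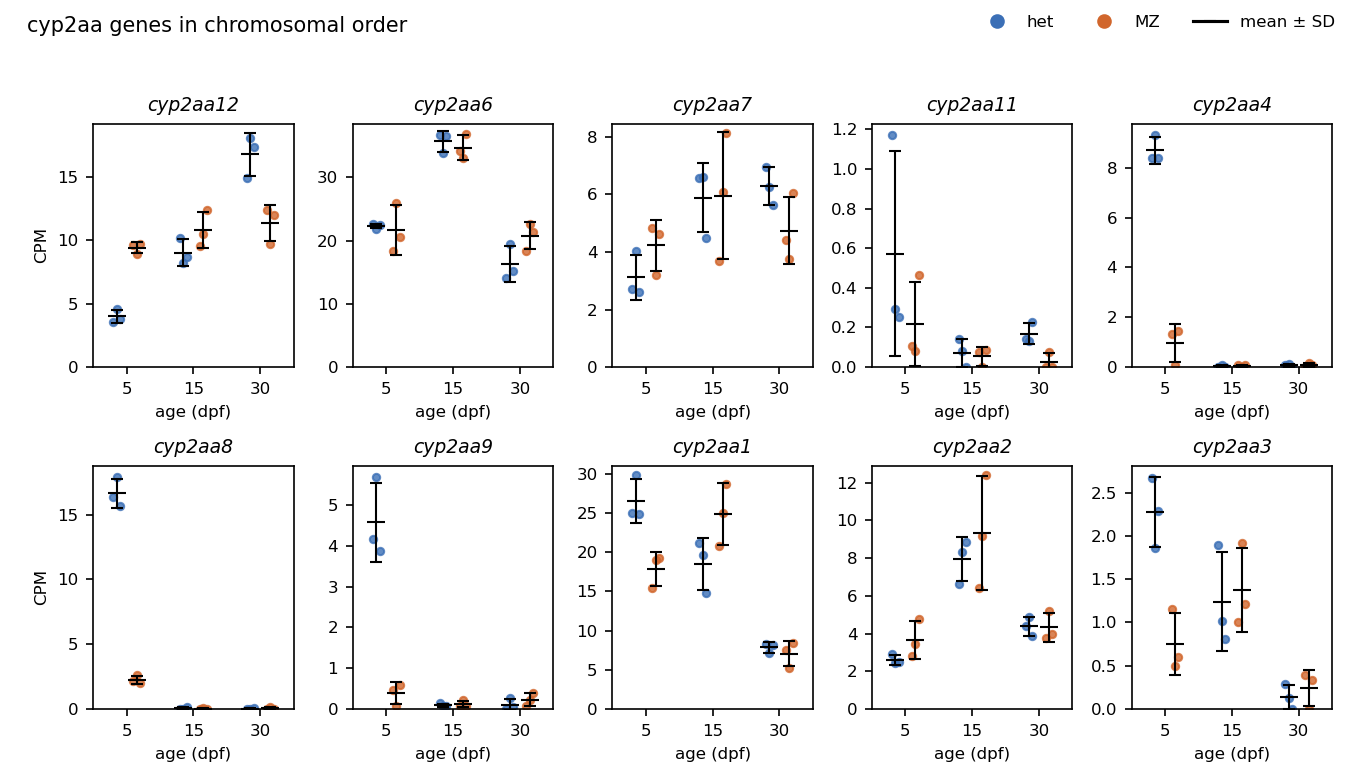
CPM of the 10 cyp2aa genes in RefSeq chromosomal order, by age in dpf; points are single libraries in blue for het and orange for MZ, bars the mean ± SD of 3. Cyp2aa4, cyp2aa8 and cyp2aa9 are high in the het libraries at 5 dpf and lie under 1 CPM in every library at 15 and 30 dpf.

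The run of 11 genes related to CYP2J also held both directions. Cyp2ad6 rose by 1.38 on the log2 scale (SE 0.18, adjusted p = 4.06e-05 by edgeR), from 5.4, 5.88 and 5.41 CPM to 16.2, 10.2 and 14.4 CPM. Cyp2n13 (0.69), cyp2p9 (0.60), cyp2p7 (0.43), cyp2ad3 (0.42) and cyp2p6 (0.35) rose by less, and cyp2p9 overlapped between the groups. Cyp2v1, which lies between cyp2ad2 and cyp2ad3, fell by 0.44 (SE 0.11, adjusted p = 0.00599 by edgeR). In cyp2x, cyp2x8 rose by 0.73 and cyp2x7 fell by 0.84 (SE 0.24, adjusted p = 0.0116 by edgeR, and 0.0538 without het replicate 2). Cyp2u1, a fatty acid hydroxylase, went from 10, 10 and 20 counts to 46, 49 and 50 counts and rose by 1.79 (SE 0.33, adjusted p = 0.00059 by edgeR). The family 4 fatty acid hydroxylases cyp4v7 (0.80) and cyp4t8 (0.71) rose, cyp4v8 (0.18) was not called, and cyp20a1, which has no established substrate, fell by 0.44.

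Of 9 tested genes of bile acid and oxysterol synthesis 5 fell and 2 rose, where 19.6% of all genes fell and 21.1% rose. Of the falls, only those of cyp7a1a and cyp8b1 kept their call without each library in turn. Cyp7a1a stood at 120.2, 186.5 and 114.7 CPM in het and 75.8, 70.6 and 90.4 CPM in MZ libraries. All MZ libraries were lower, and the gene fell by 0.75 on the log2 scale (SE 0.16, adjusted p = 0.00161 by edgeR). Cyp8b1, a sterol 12-alpha-hydroxylase in mammals, went from 42.8, 65.8 and 41.1 CPM to 29.1, 27.9 and 35.7 CPM and fell by 0.61 (SE 0.16, adjusted p = 0.00704 by edgeR). Of 6 xenobiotic and bile acid receptors listed, 5 were tested, of which 2 rose and none fell. The receptor nr0b2a, whose mammalian counterpart represses CYP7A1, rose from 11.2 ± 1.08 to 22.9 ± 6.34 CPM (SD, n = 3; log2 fold change 1.09, adjusted p = 0.000296 by edgeR), and nr1h5 rose by 0.49. The bile acid receptor nr1h4 was among those not called (0.40, adjusted p = 0.122 by edgeR). Cyp46a1 copies, which hydroxylate cholesterol in mammalian brain, parted, since cyp46a1.1 rose by 0.95 while cyp46a1.2 fell by 0.52 and cyp46a1.3 by 0.40.

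Several of these calls were near the threshold and were lost when single libraries were left out. Cyp39a1, an oxysterol 7-alpha-hydroxylase, had 12, 14 and 21 counts in het and 8, 5 and 10 in MZ libraries and fell by 1.12 (adjusted p = 0.0413 by edgeR). It was not called with DESeq2 (adjusted p = 0.112), with no filter on low counts or with the replicate number as a block. The call was also lost without het replicate 2 or 3 or any 1 MZ replicate (edgeR adjusted p up to 0.138). Cyp27a1.4, a copy of sterol 27-hydroxylase, rose by 1.3 with overlapping groups, and its call was lost without het replicate 2 or 3 or MZ replicate 2 or 3 (edgeR adjusted p up to 0.162). Cyp46a1.2 was not called without het replicate 1 or 2 or MZ replicate 1 or 3 (up to 0.192), cyp46a1.3 without het replicate 1 or MZ replicate 1 or 3 (up to 0.0556), and cyp46a1.1 without het replicate 3 (0.058). Not called with all libraries were cyp27a1.2 (-1.12) and cyp7b1 (0.30), an oxysterol hydroxylase, and cyp8b2 did not pass the filter.

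Of 4 steroid hormone genes tested at 5 dpf, 2 rose and none fell, where 21.1% of all genes rose and 19.6% fell. The 2 that rose, cyp21a2 and cyp11a2, passed the filter through their MZ levels. The number called is thus not independent of the filter. Cyp21a2, the 21-hydroxylase of cortisol synthesis, had 3 counts in each het library and 22, 9 and 13 counts in MZ libraries. All het libraries were at the floor of 3 counts, and cyp21a2 rose by 2.13 on the log2 scale (adjusted p = 0.00264 by edgeR). With 1 library left out the log2 fold change ran from 1.91 to 2.3. Cyp11a2, which cuts the cholesterol side chain, had 11, 6 and 4 counts in het and 26, 14 and 21 in MZ libraries and rose by 1.42 on the log2 scale (SE 0.41, adjusted p = 0.012 by edgeR, and 0.064 without het replicate 3). Cyp17a2 had 1, 2 and 0 counts against 11, 6 and 7 and was not tested. Cyp11c1, the 11-beta-hydroxylase, had 42 to 105 counts in het and 57 to 61 in MZ libraries, and cyp17a1 had 32 to 102 and 36 to 64. Cyp11c1 (-0.45, adjusted p = 0.142), and cyp17a1 (-0.49, adjusted p = 0.247) were not called, cyp19a1b had 3 to 6 counts in het and 7 to 18 in MZ libraries and was not tested, and cyp11a1 had 3, 1 and 1 counts in het and 0 in every MZ library. The cholesterol carrier star rose from 5.62 ± 0.781 to 11.5 ± 1.04 CPM (SD, n = 3; log2 fold change 1.11, adjusted p = 0.000117 by edgeR). The interrenal gland is the fish counterpart of the adrenal cortex, and its marker list includes star, cyp11a2, cyp17a2 and cyp21a2. These markers summed to 5.79 to 8.13 CPM in het and 15.9 to 16.3 CPM in MZ libraries. Star made up most of the sum in both genotypes, so the sum largely repeats genes given above. None of the defining markers was at 0. The part of gland size was not tested.

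Of the retinoid genes, cyp26c1, which breaks down retinoic acid, went from 18.3, 18.9 and 16.8 CPM to 14.2, 13 and 11.7 CPM. It fell by 0.39 (SE 0.13, adjusted p = 0.0228 by edgeR), a call lost without het replicate 1 or 2 or MZ replicate 3 (up to 0.102). Its relatives cyp26a1 (0.31) and cyp26b1 (-0.02), and cyp27c1 (-0.10), which makes vitamin A2 in zebrafish, were not called. Of 9 further retinoid genes, 5 fell and none rose, where 19.6% of all genes fell and 21.1% rose. The 5 were the binding proteins crabp2a (-1.27, adjusted p = 4.76e-07 by edgeR) and crabp2b (-0.87), the retinoic acid synthase aldh1a2 (-0.49) and the dehydrogenases dhrs3a (-0.53) and rdh10b (-0.35). Of 7 genes listed for electron supply, the reductase gene por had no row of that name. Among the 6 tested, fdx1b rose (1.14, adjusted p = 0.0217 by edgeR), fdx1 fell (-0.33, adjusted p = 0.0377), and fdxr, cyb5a, cyb5b and pgrmc1 were not called.

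At 15 dpf 1 of 61 tested P450 genes was higher in MZ fish and none was lower, where 0.891% of 19307 genes passed, 0.445% in each direction. Cyp2k6 was read at 0.838, 1.18 and 0.591 CPM in het and 7.24, 1.7 and 4.67 CPM in MZ libraries. The MZ libraries spread widely but all lay above the het libraries, and the log2 fold change was 2.41 (SE 0.47, adjusted p = 0.043 by edgeR). This call was lost with the replicate number as a block, and without any 1 het replicate or MZ replicate 3 (up to 0.148). Without MZ replicate 1, 7 P450 genes were called higher, with DESeq2 4 and with no filter 3. An unadjusted p under 0.05 was reached by 15 of the 61 genes, and 49 had a positive log2 fold change, with a median of 0.23 against -0.01 over all genes, of which 9532 of 19307 were positive. The genes were read in the same libraries and are not separate observations. Summed P450 levels were 2841.1, 2707.8 and 2446.1 CPM in het and 2743.7, 3045.7 and 3590.4 CPM in MZ libraries, which overlapped. The MZ libraries lay wholly above the het libraries for 11 P450 genes and wholly below for 1, against 10.7% and 12.6% of all genes. Among those closest to the threshold were cyp2n13 (0.50, adjusted p = 0.0597) and cyp2x8 (0.52, adjusted p = 0.0755), chosen after their values were seen. Enterocyte markers summed to 6971.7 to 8765.7 CPM in het and 7778.6 to 12967.2 CPM in MZ libraries, and their part in the shift was not tested.

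At 30 dpf none of 61 tested P450 genes was called, where 3.30% of 19980 genes were, 1.11% higher and 2.20% lower. DESeq2 also called 0, and 10 genes had an unadjusted p under 0.05 in edgeR. Log2 fold changes ran from -1.63 (cyp24a1, SE 0.72, adjusted p = 0.218) to 0.99 (cyp39a1, SE 0.43, adjusted p = 0.208), with a median of 0.01. MZ libraries stood wholly above het libraries for 2 genes and wholly below for 7, against 12.3% and 15.5% of all genes. Cyp24a1 stood at 11.9, 2.09 and 3.56 CPM in het and 1.57, 3.54 and 0.466 CPM in MZ libraries, which overlapped. Hepatocyte markers summed to 15632.9 to 17634.5 CPM in het and 11860.5 to 13022.5 CPM in MZ libraries, with 1 of 15 lower. Over the same libraries cyp7a1a overlapped and was not called, at 414.4 ± 75.9 CPM in het and 420.7 ± 82.5 CPM in MZ fish (SD, n = 3; log2 fold change 0.05, SE 0.17).

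**Figure D4:**
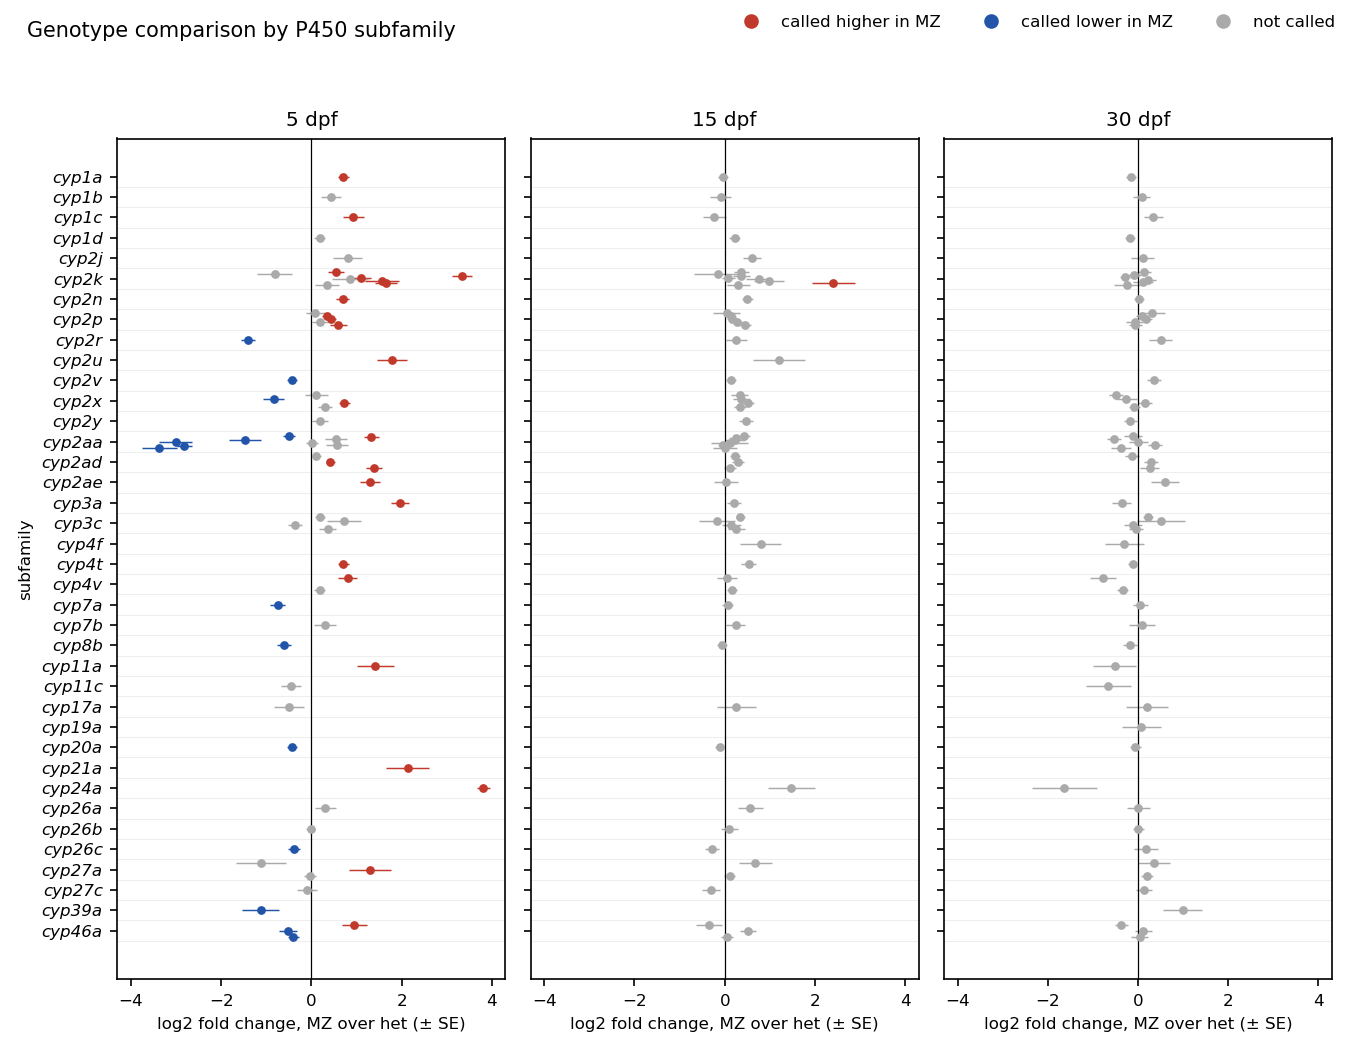
Log2 fold change of MZ over het (x axis, ± SE) for each tested P450 gene, in rows by subfamily, at 5, 15 and 30 dpf; red marks genes called higher, blue lower and grey not called. Called genes fill the 5 dpf panel on both sides, 1 cyp2k gene is called at 15 dpf and none at 30 dpf.

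Whether the genotype difference itself changed with age was tested as an interaction over the 18 libraries. It was called for 22 of 71 P450 genes, where 33.3% of 21191 genes were called, so the P450 share of 31% was near the background. An unadjusted p under 0.05 was reached by 36. The 5 smallest p-values belonged to cyp2k18 (adjusted p = 3.05e-06 by edgeR), cyp2aa12 (2.85e-05), cyp24a1 (5.48e-05), cyp3a65 (0.000145) and cyp2r1 (0.000251). Their log2 fold changes at 5, 15 and 30 dpf were 3.34, 0.37 and -0.08 for cyp2k18, 1.33, 0.26 and -0.53 for cyp2aa12, 3.81, 1.48 and -1.63 for cyp24a1, 1.97, 0.20 and -0.36 for cyp3a65, and -1.41, 0.26 and 0.50 for cyp2r1. Each of the 5 was thus widest at 5 dpf.

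Between 5 and 15 dpf more P450 genes rose than fell in both genotypes. In het fish 33 of 66 tested genes rose and 12 fell, where 39.7% of all genes passed the test, 19.7% higher and 20.0% lower. Of 64 genes tested in MZ fish 31 rose and 8 fell, where 57.0% of all genes passed the test, 27.7% higher and 29.3% lower. The ages did not overlap for 36 genes higher and 13 lower at 15 dpf in het fish, against 23.8% and 26.8% of all genes, and for 32 higher and 9 lower in MZ fish, against 31.5% and 32.0%. The steps of the genotypes share no library. Of the genes that rose, 27 did so in both, out of 33 in het and 31 in MZ fish, and 4 of the falling genes fell in both. Calls held in both genotypes were not counted over all genes, so these numbers do not set P450 genes apart. The median log2 fold change was 0.53 in het fish, 0.36 with no filter and 0.35 in a joint fit of the 18 libraries, and it was 0.45 in MZ fish. Cyp2aa1 alone was called in opposite directions, lower in het (-0.51) and higher in MZ fish (0.45).

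All 4 tested cyp2x genes rose between 5 and 15 dpf in each genotype, by 0.70 to 1.46 on the log2 scale in het and by 1.05 to 1.95 in MZ fish. Of 5 cyp2p genes 4 rose in each, with cyp2p9 in the lead (2.06 in het, 1.95 in MZ). Cyp2k18 rose by 3.83 (SE 0.24) from its low level in het fish, to 42.5, 49.9 and 32.9 CPM, and by 0.90 (SE 0.16) in MZ fish, to 51.4, 41.3 and 69.6 CPM. At 15 dpf its genotypes overlapped. The het comparison of ages and the genotype comparison at 5 dpf share the 3 het libraries of 5 dpf. Cyp2k19, cyp2ad6 and cyp2k20 were also among the 5 widest rises in het fish (2.22, 1.90 and 1.90), and cyp3c3, cyp2x7, cyp2k20 and cyp2x10.2 in MZ fish (2.03, 1.95, 1.86 and 1.73).

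Cyp1a rose by 1.18 in het and 0.47 in MZ fish and cyp1b1 by 1.4 and 0.92. Cyp1d1 rose by 0.43 in MZ and by 0.35 in het fish, the latter not called without het 5 dpf replicate 1 or het 15 dpf replicate 2 or 3 (adjusted p up to 0.137). Cyp1c2 rose in het fish (0.99) and was not called in MZ fish (-0.13). Cyp7a1a rose by 0.68 in het and 1.55 in MZ fish, cyp8b1 by 1.00 and 1.6, and cyp27c1 by 1.29 and 1.14. Cyp46a1.1 rose (1.46) and cyp46a1.2 fell (-0.94) in het fish, and in MZ fish only cyp46a1.3 of the 3 was called (0.65). Over the same step 19.7% of all genes were called higher in het and 27.7% in MZ fish. Of 9 enterocyte markers 8 rose in het and 9 in MZ fish. Of 15 hepatocyte markers 8 rose in each, while 2 fell in het and 1 fell in MZ fish. Their part was not tested.

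The widest falls between 5 and 15 dpf were in cyp2aa, cyp24a1 and genes of hormone synthesis. Cyp2aa8 had 252, 183 and 247 counts in het fish at 5 dpf and 0, 0 and 2 at 15 dpf, which made it at least 75-fold lower, and in MZ fish it was at least 8.36-fold lower. In het fish cyp2aa4 was at least 39.1-fold lower and cyp2aa9 at least 20.6-fold lower. These 3 genes stayed at 6 counts or fewer in every library of 30 dpf. Cyp24a1 fell by 3.26 (SE 0.39, adjusted p = 1.1e-05 by edgeR) in het fish, to 2.37, 0.865 and 0.222 CPM, and by 5.55 (SE 0.17, adjusted p = 5.94e-11) in MZ fish, to 3.7, 2.24 and 3.8 CPM. Cyp2r1 fell by 1.4 in het fish (adjusted p = 1.45e-05 by edgeR) and was not called in MZ fish (0.31, adjusted p = 0.267), where it was already low at 5 dpf. Cyp11c1 fell by 2.99 in het and 2.42 in MZ fish, cyp17a1 fell by 1.63 in het fish, and cyp21a2 was at least 3.41-fold lower and cyp11a2 lower by 1.68 on the log2 scale in MZ fish. Cyp26c1 fell by 0.94 and 0.79. Cyp2aa8 and cyp11c1 passed the filter through their 5 dpf counts in both genotypes. So did cyp2aa4, cyp2aa9 and cyp24a1 in het fish, and cyp21a2 and cyp11a2 in MZ fish. Neither these calls nor the ranking of the falls is independent of the filter.

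Between 15 and 30 dpf falls outnumbered rises in MZ fish, and in het fish the numbers were close. In het fish 12 of 64 tested genes rose and 15 fell, where 21.5% of all genes passed the test, 10.6% higher and 10.9% lower. Of 62 genes tested in MZ fish 5 rose and 19 fell, where 19.3% of all genes passed the test, 10.2% higher and 9.05% lower. The het numbers were 13 and 13 without het 15 dpf replicate 1. The median log2 fold change was 0.16 in het fish (-0.03 without het 15 dpf replicate 3), with 36 of 64 genes positive, and -0.17 in MZ fish, with 23 of 62 positive. The ages did not overlap for 17 genes higher and 17 lower at 30 dpf in het fish, against 18.7% and 19.8% of all genes, and for 7 higher and 20 lower in MZ fish, against 16.6% and 21.4%. The MZ numbers moved with single libraries, to 10 falls without MZ 15 dpf replicate 2, 11 falls and 8 rises without MZ 15 dpf replicate 3, and 3 rises without MZ 30 dpf replicate 1. Shared between the genotypes were 13 falling genes, out of 15 in het and 19 in MZ fish, and 4 rising genes, out of 12 and 5. Shared calls were not counted over all genes at this step either. Over this step 6 of 11 exocrine pancreas markers fell in MZ fish and none rose, while in het fish 2 rose and none fell. Of 9 enterocyte markers 3 fell and none rose in each genotype. The part of these markers was not tested.

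The 4 genes that rose in both genotypes were cyp46a1.1, cyp46a1.2, cyp7a1a and cyp4v8. Cyp46a1.1 went from 3.98, 6.69 and 5.02 to 21.7, 18 and 22.6 CPM in het and from 4.16, 2.66 and 5.36 to 15.3, 17.6 and 14.3 CPM in MZ fish, a log2 fold change of 2.00 in each (SE 0.18 and 0.23). Cyp46a1.2 rose by 1.36 and 0.99, and cyp7a1a by 0.89 (SE 0.12) and 0.90 (SE 0.16). Cyp4v8, a fatty acid hydroxylase whose human counterpart is linked to a retinal dystrophy, rose by 1.02 in het fish and by 0.54 in MZ fish (adjusted p = 0.0579 by edgeR without MZ 30 dpf replicate 1). Over this step 10.6% of all genes were called higher in het and 10.2% in MZ fish. Of 15 hepatocyte markers 14 rose in het and 7 in MZ fish, and none fell. Their part was not tested.

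Of the falls at this step, family 2 gave 9 of 15 in het and 13 of 19 in MZ fish, with 31 of the 64 and 31 of the 62 tested genes. Of 6 tested cyp2aa genes 4 fell in each genotype, with cyp2aa3 at -3.18 in het and -2.37 in MZ fish, the latter not called without MZ 15 dpf replicate 2 or 3 (adjusted p up to 0.10). Cyp2aa1 fell by 1.24 and 1.75, cyp2aa6 by 1.13 and 0.69, and cyp2ad3 by 1.12 and 1.11. Cyp7b1 fell by 1.03 in het (0.0525 without het 15 dpf replicate 2) and 1.15 in MZ fish. Cyp1a fell by 0.70 and 0.80, to levels of 95.4 to 105.9 CPM in het and 76.8 to 95.2 CPM in MZ libraries. Cyp2k6 fell by 4.28 in MZ fish, from 94, 16 and 54 counts at 15 dpf, and did not pass the filter in het fish. Cyp2k6 in MZ fish and cyp2aa3 in both genotypes passed the filter through their 15 dpf counts. These calls are thus not independent of the filter. In het fish 4 genes of family 2 rose, cyp2k21 by 1.67 (adjusted p = 0.000342 by edgeR), cyp2aa12 by 0.90, cyp2x10.2 by 0.86 and cyp2x8 by 0.71, and in MZ fish none did.

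Cyp11a1, the side chain cleavage enzyme known from zebrafish eggs and gonads, was at 0 counts in all 6 libraries of 15 dpf. At 30 dpf it had 40, 49 and 31 counts in het and 20, 42 and 10 in MZ libraries. In het fish it was thus at least 11.8-fold higher (adjusted p = 0.000116 by edgeR), and it was not tested in MZ fish. Cyp11a1 passed the filter in het fish through its 30 dpf counts alone, so its call is not independent of the filter. Oocyte marker sums also rose in het fish. They lay between 1.97 and 2.73 CPM at 15 dpf and between 45.1 and 183.4 CPM (median 143.9) at 30 dpf. In MZ fish these sums lay between 1.69 and 3.02 CPM at 15 dpf and between 25.1 and 155.7 CPM (median 35.5) at 30 dpf. All 8 tested in het and all 5 in MZ fish were called higher. In het fish only 1 of 9 passed the filter between 5 and 15 dpf. Most thus passed here through their 30 dpf levels, and the number called is not independent of the filter. The part of ovary size was not tested. Cyp24a1 rose by 2.30 in het fish (adjusted p = 0.0372 by edgeR) with overlapping groups, and this call was lost with DESeq2 (0.119) and without het 15 dpf replicate 2 or 3 or het 30 dpf replicate 1 (up to 0.164). The calls of cyp26a1, cyp46a1.3 and cyp39a1 at this step were lost with the replicate number as a block and with single libraries left out. In het fish, cyp26a1 (0.80) was also lost with DESeq2, and without any 1 library (adjusted p up to 0.135 by edgeR). Cyp46a1.3 in het fish (-0.44) was lost without any 1 het 15 dpf replicate or het 30 dpf replicate 1 (up to 0.171). Cyp39a1 in MZ fish (1.57) was lost with no filter, and without MZ 15 dpf replicate 1 or 2 or any 1 MZ 30 dpf replicate (up to 0.162).

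The vitamin D row CYP27B1 rose between 15 and 30 dpf, with log2 fold changes of 1.4 in het (SE 0.42, adjusted p = 0.035 by edgeR) and 1.77 in MZ fish (SE 0.45, adjusted p = 0.0195 by edgeR). The het call was lost without het 15 dpf replicate 1 or 3 or het 30 dpf replicate 1 or 2 (adjusted p up to 0.155 by edgeR), and the MZ call without MZ 15 dpf replicate 1 or 3 or MZ 30 dpf replicate 1 (up to 0.0874). In MZ fish the row had 6, 6 and 5 counts at 15 dpf and passed the filter through its 30 dpf counts. Cyp2r1 was not called at this step in het (-0.18) or MZ fish (0.07).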

How the data were processed

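The authors deposited 1 table of raw read counts per gene name for the 18 libraries, with a length column. Per the submitters' processing notes, the build was GRCz10 and the tools included cutadapt, STAR 2.5.4b and featureCounts 1.6.3 of Subread, and how shared reads and strands were treated is not given in the sources used here. All value columns matched a sample (0 did not).

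From these counts each comparison was fitted across all genes on its 6 libraries with edgeR 4.0.16 (limma 3.58.1, R 4.3.3), using filterByExpr with a minimum count of 10, TMM factors, the quasi-likelihood test and Benjamini-Hochberg adjustment. Genes were called at an adjusted p under 0.05. The interaction of genotype and age used all 18 libraries. A group was at the floor when every library had at most 3 counts, and "at least" folds use 3 counts per library. This floor covers counting error only. Replicates were compared by chi-square and none were merged. The steps were tested on simulated data.

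The members and lists were chosen with earlier results of these data known. Genes were named by rule, namely called P450 genes up to 12 per direction between genotypes and 5 per direction between ages, the 5 smallest interaction p-values, the highest RPKM of each family, and fixed lists by role. The remaining members are given by counts and ranges. The RefSeq table of assembly GRCz12tu served only for names and neighbours, with up to 2 other protein-coding genes allowed between neighbours, and 76 of the 79 members matched, 69 by symbol and 7 by synonym. Alternatives were RLE size factors, DESeq2 1.42.0, no filter, one fit over all libraries, the replicate number as a block, and leaving out each library in turn.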

Additional observations from a re-analysis of the deposited data

Results flagged for a closer look

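For 12 P450 genes the difference between MZ and het fish itself differed between 5, 15 and 30 dpf by the edgeR interaction test over the 18 libraries. They are the 5 with the smallest p-values and the role list genes among 22 called of 71. That share of 31% was near the background of 33.3% of 21191 genes called. The adjusted p was 3.05e-06 for cyp2k18, 2.85e-05 for cyp2aa12, 5.48e-05 for cyp24a1, 0.000145 for cyp3a65 and 0.000251 for cyp2r1, all by edgeR. For cyp1a, with log2 fold changes of 0.71, -0.04 and -0.16 at the 3 ages, it was 0.00303 by edgeR. For cyp39a1 it was 0.0105, for cyp7a1a (-0.75, 0.07 and 0.05) 0.0127, for cyp46a1.2 (-0.52, 0.51 and 0.12) 0.0128 and for cyp46a1.1 (0.95, -0.35 and -0.37) 0.0132. For cyp21a2 it was 0.0272 and for cyp1c2 (0.93, -0.23 and 0.34) 0.0456. Between genotypes cyp21a2 was tested at 5 dpf only, and cyp39a1 was not tested at 15 dpf. Cyp21a2 passed the filter of the interaction through its MZ counts at 5 dpf, so its call is not independent of the filter.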

How the results depend on the processing

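With 1 library left out, 542 results for named genes kept their side of the threshold and 58 lost their call. Under the other settings 487 kept it and 10 lost it, and none of these results reversed. The number of P450 genes higher in MZ fish at 15 dpf, 1, became 4 with DESeq2, 3 with no filter on low counts and 0 with the replicate block, and ran from 0 to 7 with 1 library left out. At 30 dpf 1 gene was called lower in one fit over all 18 libraries, against 0. Between 15 and 30 dpf in MZ fish the rises, 5, became 8 in that fit and ran from 3 to 8, and the falls, 19, from 10 to 20, with 1 library left out. The causes were not tested. The other counts stayed within 1.5 times. Same-numbered replicates were not paired, since the correlations of their deviations ran from -0.11 to 0.14, and the labels do not say that the number marks a shared source. With the replicate block 25 P450 genes were higher and 14 lower in MZ fish at 5 dpf. In one fit over all 18 libraries the share of higher calls among all genes at 5 dpf went from 51.9% to 41.8%, and among P450 genes from 62.5% to 60.5%. Between 15 and 30 dpf in MZ fish the share went from 53% to 43.2% among all genes and from 20.8% to 28.6% among P450 genes. The median over P450 genes from 15 to 30 dpf in het fish, 0.16, was -0.03 without het 15 dpf replicate 3. Depth limited the hormone genes, where single libraries held under 10 counts.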
